A study of Homo sapiens with 4 samples.

Results

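Lipid synthesis was followed through 4 genes in SH-SY5Y cells, a human neuroblastoma line that grows attached and has features of sympathetic neurons: the fatty acid desaturase SCD, the sterol oxidase MSMO1, the transcription factor gene SREBF1 and the mevalonate pathway kinase PMVK. They were taken by symbol from the probe annotation, and all 4 were present, with 5 probe sets, among 14884 genes with a named probe set. In SCD, which has 2 probe sets, the one with the higher mean over the arrays was used and the other served as a check. The genes were selected on their measured log2 change between origamicin and mock on these same arrays, so their differences are given as a description, without a test.

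The cells had received origamicin, which the submitters describe as an inhibitor of protein disulfide isomerase, at 30 µM for 24 h, or methanol, its solvent, for the same time (mock). Their RNA was hybridised to Affymetrix Human Gene 2.0 ST arrays, 2 per group, and all cultures are of this 1 line. The labels name the arrays of a group biological replicates and do not say what separates them, so a p-value here covers the spread of these arrays, which may be technical. Each probe set has a deposited log2 expression value, on which a difference of 1 is a doubling of signal. In RNA from whole cultures, fewer cells of a type and less RNA per cell cannot be told apart.

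Sterols and fatty acids are made from acetyl-CoA, and sterol regulatory element binding proteins (SREBPs) drive the genes of both routes. SREBPs are made as membrane proteins of the endoplasmic reticulum (ER), where SCAP escorts them towards the Golgi for cleavage when sterols are low and INSIG proteins hold them back when sterols are high. SREBF1 encodes the forms best known for fatty acid genes, and SREBF2 the form best known for cholesterol genes. SCD puts the first double bond into saturated fatty acids, and MSMO1 oxidises methyl groups at carbon 4 of sterol intermediates. Both are iron enzymes of the ER membrane that draw electrons through cytochrome b5, whereas PMVK is a kinase of the early mevalonate steps.

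The promoters of the 4 genes are shown because SREBP target genes are known to carry, beside a sterol regulatory element, sites for the helper factors NF-Y and Sp1. Each sequence runs 5′ to 3′ on the gene's strand from 250 bases before to 50 after 1 annotated start (RefSeq, GRCh38.p14), and other starts of the same gene are not covered. Capitals mark CCAAT (NF-Y) and GGGCGG (the GC box bound by Sp1) on either strand, so that the reverse complements ATTGG and CCGCCC are also in capitals.
SCD, chr10:100346983-100347282, + strand: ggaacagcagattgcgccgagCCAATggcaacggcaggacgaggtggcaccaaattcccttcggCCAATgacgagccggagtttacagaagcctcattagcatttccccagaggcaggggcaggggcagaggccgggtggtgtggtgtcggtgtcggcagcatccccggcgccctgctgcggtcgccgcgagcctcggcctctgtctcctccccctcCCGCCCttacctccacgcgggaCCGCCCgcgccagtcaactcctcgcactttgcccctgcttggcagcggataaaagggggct
MSMO1, chr4:165327419-165327718, + strand: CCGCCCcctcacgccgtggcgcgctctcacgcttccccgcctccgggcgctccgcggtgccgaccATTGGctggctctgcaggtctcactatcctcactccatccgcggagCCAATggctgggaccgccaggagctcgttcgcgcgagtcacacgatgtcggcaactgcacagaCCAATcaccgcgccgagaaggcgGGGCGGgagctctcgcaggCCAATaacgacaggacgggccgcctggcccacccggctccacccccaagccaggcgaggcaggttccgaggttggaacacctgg
SREBF1, chr17:17836937-17837236, - strand: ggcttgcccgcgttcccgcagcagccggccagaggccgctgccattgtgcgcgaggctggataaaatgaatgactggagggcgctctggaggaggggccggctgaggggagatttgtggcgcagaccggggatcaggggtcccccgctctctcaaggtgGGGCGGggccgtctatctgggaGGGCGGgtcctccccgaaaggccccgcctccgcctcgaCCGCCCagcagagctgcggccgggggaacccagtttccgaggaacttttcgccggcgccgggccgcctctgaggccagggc
PMVK, chr1:154936670-154936969, - strand: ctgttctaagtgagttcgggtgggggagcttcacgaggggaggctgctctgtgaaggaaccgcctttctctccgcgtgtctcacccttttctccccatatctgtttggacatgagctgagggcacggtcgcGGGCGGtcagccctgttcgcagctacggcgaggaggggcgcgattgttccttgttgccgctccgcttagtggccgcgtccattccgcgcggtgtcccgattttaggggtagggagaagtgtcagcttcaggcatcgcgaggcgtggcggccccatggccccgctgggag

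The windows differed in these letters. CCAAT occurred 4 times in the MSMO1 window and 2 times in that of SCD, and 0 times in those of SREBF1 and PMVK. GGGCGG occurred in all 4 windows, 3 times for SREBF1, 2 times each for SCD and MSMO1 and 1 time for PMVK. No match overlapped another. The sterol element TCACNCCAC and the E box CACGTG were searched on both strands as well and had 0 matches in the 4 windows. Of 27305 promoter windows of this length, 35.7% held CCAAT, 44.6% GGGCGG, 7.43% CACGTG and 1.15% TCACNCCAC. Among the 9053 windows of genes tested here the shares were 35.9%, 66.3%, 9.74% and 1.05%. Among the tested cholesterol synthesis genes listed further on, 11 of the 14 with a window held CCAAT (78.6%). Among those of fatty acid synthesis 13 of 25 did (52%). GGGCGG was in 85.7% and 84% of the same windows. The 14 windows include those of MSMO1 and PMVK, and the 25 include that of SCD, so these shares partly count the members themselves. TCACNCCAC was in 0 of these 14 and 1 of these 25 windows (4%), and CACGTG in 0 and 2 (8%). Only these exact strings were searched, so 0 matches do not show that a gene lacks a sterol element. A match describes the letters only and is not evidence of binding.

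The desaturase SCD was lower on both origamicin arrays than on both mock arrays, as 25.8% of all genes tested were. Its main probe set read 10.70 and 10.76 in mock and 10.44 and 10.37 in origamicin, a log2 change of -0.33 ± 0.07 (SE of the limma fit, 2 arrays per group), or 1.26-fold lower. The gap between the lowest mock and the highest origamicin array was 0.27, and the SD between arrays was 0.04 in mock and 0.05 in origamicin. Since the gene was selected on this difference, the gap is a description, as are those of the other 3 genes. The other probe set read 6.45 and 6.25 in mock and 5.70 and 5.75 in origamicin, a log2 change of -0.63, or 1.54-fold lower. Both probe sets thus placed the origamicin arrays below the mock arrays, with unequal sizes. A change at least as large as that of the main SCD probe set, in either direction, was seen in 7.89% of the 11883 genes tested.

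MSMO1, the oxidase of sterol intermediates, was lower as well, on its 1 probe set. It read 9.57 and 9.63 in mock and 9.34 and 9.31 in origamicin, a log2 change of -0.28 ± 0.07 (SE, 2 arrays per group), or 1.21-fold lower. The groups were separated by 0.23, and the SDs were 0.04 and 0.02. As large a change in either direction was seen in 11.9% of genes.

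SREBF1 was lower on average and its arrays were more spread. Its probe set read 6.52 and 6.23 in mock and 6.12 and 5.93 in origamicin, a log2 change of -0.36 ± 0.13 (SE, 2 arrays per group), or 1.28-fold lower. The groups did not overlap, but the gap of 0.12 was smaller than the SD in mock (0.21) and in origamicin (0.13). As large a change in either direction was seen in 6.40% of genes. The size of the change depended on single arrays of both groups. Without mock replicate 1 the log2 change was -0.21, and without mock replicate 2 it was -0.50. Without origamicin replicate 1 it was -0.45, and without origamicin replicate 2 it was -0.26. The gene has 1 named probe set, so transcripts from its different first exons are not separated.

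PMVK, which adds a phosphate to phosphomevalonate, went the other way, with both origamicin arrays above both mock arrays, as for 22.7% of genes. It read 8.03 and 8.11 in mock and 8.31 and 8.28 in origamicin, a log2 change of 0.23 ± 0.07 (SE, 2 arrays per group), or 1.17-fold higher. The groups were separated by 0.17, the SDs were 0.06 and 0.02, and 18.9% of genes had a change at least as large in either direction. MSMO1 and PMVK serve the same route and were each selected on their change, so nothing is read from their opposite directions.

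**Figure D1:**
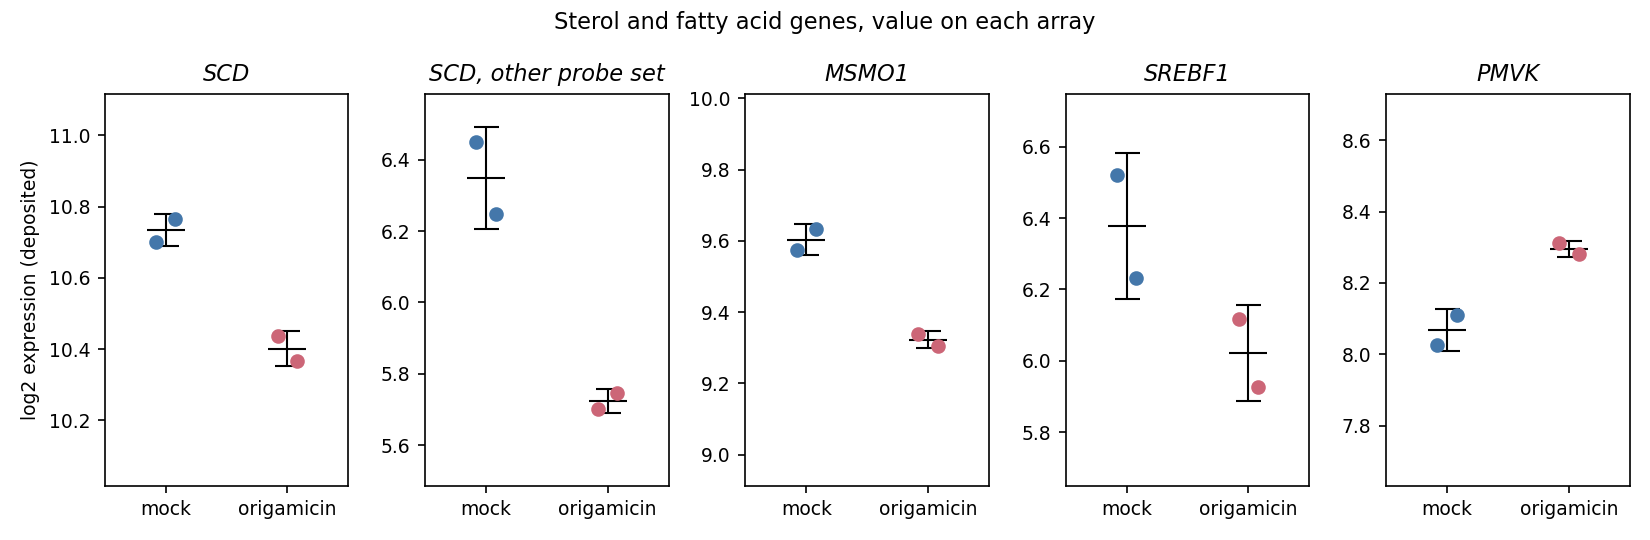
Log2 expression of SCD (both probe sets), MSMO1, SREBF1 and PMVK on each array, with mock in blue and origamicin in red, 2 points per group; bars give the mean and 1 SD, and every panel spans the same height on the log2 scale. In each panel the groups do not overlap, and the SREBF1 arrays are the most spread.

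Other genes of lipid metabolism were taken from 8 lists of 187 genes without the 4 members. Of these, 113 had a named probe set and 107 were bright enough to be tested. In the limma fit over all 11883 genes, 0 of the 107 passed an adjusted p of 0.05, where 0% of all genes did. At an unadjusted p under 0.05, 9 were higher (8.41%) and 10 lower (9.35%), against 7.99% and 8.42% of all genes. The 19 became 9 and 7 without mock replicate 1 or 2, and 7 and 11 without origamicin replicate 1 or 2. Both origamicin arrays lay above both mock arrays for 25 genes (23.4%, all genes 22.7%) and below for 35 (32.7%, all genes 25.8%). The median log2 change of the 107 was -0.01, as over all genes. The shares past p thresholds lay near those of all genes.

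The outcome depended on how the spread was modelled. When limma's prior variance was allowed to follow intensity, 2 of the 107 passed on the higher side (1.87%, all genes 2.14%) and 3 on the lower side (2.80%, all genes 2.16%). The 5 became 0 without mock replicate 1 or 2. Without origamicin replicate 1 SOAT1 and VLDLR passed, and without origamicin replicate 2 VLDLR and CPT1A. The 5 genes, VLDLR, SOAT1, ELOVL4, HILPDA and CYB5A, are described with their lists.

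Cholesterol synthesis genes showed no common direction. Of the 16 tested, 8 stood higher and 8 lower, with a median log2 change of 0.0004 and a range from -0.28 (MSMO1) to 0.23 (PMVK), and none of the 14 other than MSMO1 and PMVK passed the adjusted threshold. Over all genes tested 47.8% stood higher. HMGCS1, which makes the precursor of mevalonate, read 7.79 and 7.71 in mock and 7.76 and 7.66 in origamicin (-0.04 ± 0.07 SE, 95% interval -0.24 to 0.16). The kinase MVK, which acts just before PMVK, stood at 0.14 ± 0.08 (-0.08 to 0.36), and the decarboxylase MVD, which acts just after it, at -0.04 ± 0.07 (-0.21 to 0.14). The isomerase IDI1 of the following step stood at 0.15 ± 0.07.

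Beside MSMO1, the lowest values of the route were those of FDPS and SQLE. FDPS, which makes farnesyl diphosphate, read 6.88 and 6.89 in mock and 6.66 and 6.74 in origamicin, a log2 change of -0.19 ± 0.07 (limma adjusted p = 0.29). Its other probe set stood at -0.23. SQLE, the epoxidase that commits squalene to sterols, read 8.90 and 8.80 in mock and 8.67 and 8.71 in origamicin (-0.16 ± 0.07, limma adjusted p = 0.37). In both genes the groups did not overlap, with origamicin below mock, as for 25.8% of all genes. NSDHL, which works on the same carbon 4 as MSMO1, read 8.01 and 7.83 in mock and 7.98 and 7.94 in origamicin (0.04 ± 0.09, 95% interval -0.19 to 0.27), with overlapping groups.

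Fatty acid synthesis, elongation and desaturation genes also split evenly. Of 27 tested, 13 stood higher and 14 lower, with a median of -0.01. Of the enzymes that build palmitate, 2 stood slightly lower and 1 higher. ACLY, which supplies acetyl-CoA, stood at -0.03 ± 0.06 (0.0017 with quantile normalization), with a gap between groups of 0.0067. FASN, the fatty acid synthase, stood at -0.07 ± 0.06 (95% interval -0.24 to 0.09). ACACA, the carboxylase that makes malonyl-CoA, stood at 0.18 ± 0.08 (-0.04 to 0.41). In these genes the groups did not overlap, but over all genes tested 22.7% lay wholly above mock and 25.8% wholly below. The second human stearoyl-CoA desaturase, SCD5, read 7.24 and 7.29 in mock and 7.32 and 7.35 in origamicin (0.08 ± 0.06, 95% interval -0.10 to 0.25). The desaturases of polyunsaturated fatty acids, FADS1 (0.01 ± 0.07) and FADS2 (-0.02 ± 0.07), had overlapping groups.

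CYB5A encodes the ER cytochrome b5 that passes electrons to SCD and MSMO1. It read 9.27 and 9.37 in mock and 9.09 and 9.05 in origamicin, a log2 change of -0.25 ± 0.07, with groups that did not overlap (origamicin below, as for 25.8% of all genes). Its adjusted p was 0.23 with limma's single prior variance and 0.0497 with an intensity trend (0.0497 to 0.53 over 16 alternatives). Among the elongases, ELOVL4, which makes very long chain fatty acids, read 7.99 and 8.15 in mock and 8.41 and 8.46 in origamicin (0.36 ± 0.08). Its adjusted p was 0.18 with limma's single prior variance and 0.034 with an intensity trend (0.034 to 0.46 over 16 alternatives). ELOVL1 stood at 0.20 ± 0.07, and the dehydratase HACD3 of the same elongation cycle at 0.14 ± 0.06. HSD17B12, the reductase of that cycle, was dim and stood at -0.13 ± 0.06.

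Of the 11 tested genes that control SREBPs beside SREBF1, 4 stood higher and 7 lower (36.4% higher, all genes 47.8%), with a median of -0.08, and none passed. SREBF2, the other SREBP gene, read 7.51 and 7.73 in mock and 7.56 and 7.50 in origamicin (-0.08 ± 0.10, 95% interval -0.35 to 0.18), with overlapping groups. Whether its change differed from that of SREBF1 was not tested, since SREBF1 was chosen for its change. The retention protein INSIG2 read 8.31 and 8.26 in mock and 7.94 and 8.08 in origamicin (-0.28 ± 0.08, limma adjusted p = 0.23). Its relative INSIG1, itself a known SREBP target, stood at -0.16 ± 0.09. RNF139, an ER ubiquitin ligase of the sterol response, read 7.08 and 7.22 in mock and 6.73 and 6.96 in origamicin (-0.31 ± 0.11, limma adjusted p = 0.28). The escort SCAP (0.05 ± 0.07), the phosphatidate phosphatase LPIN1 (0.11 ± 0.06), the kinase GSK3B (0.11 ± 0.06) and ERLIN2 (0.10 ± 0.06), an ER membrane protein that binds cholesterol, stood slightly higher.

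**Figure D2:**
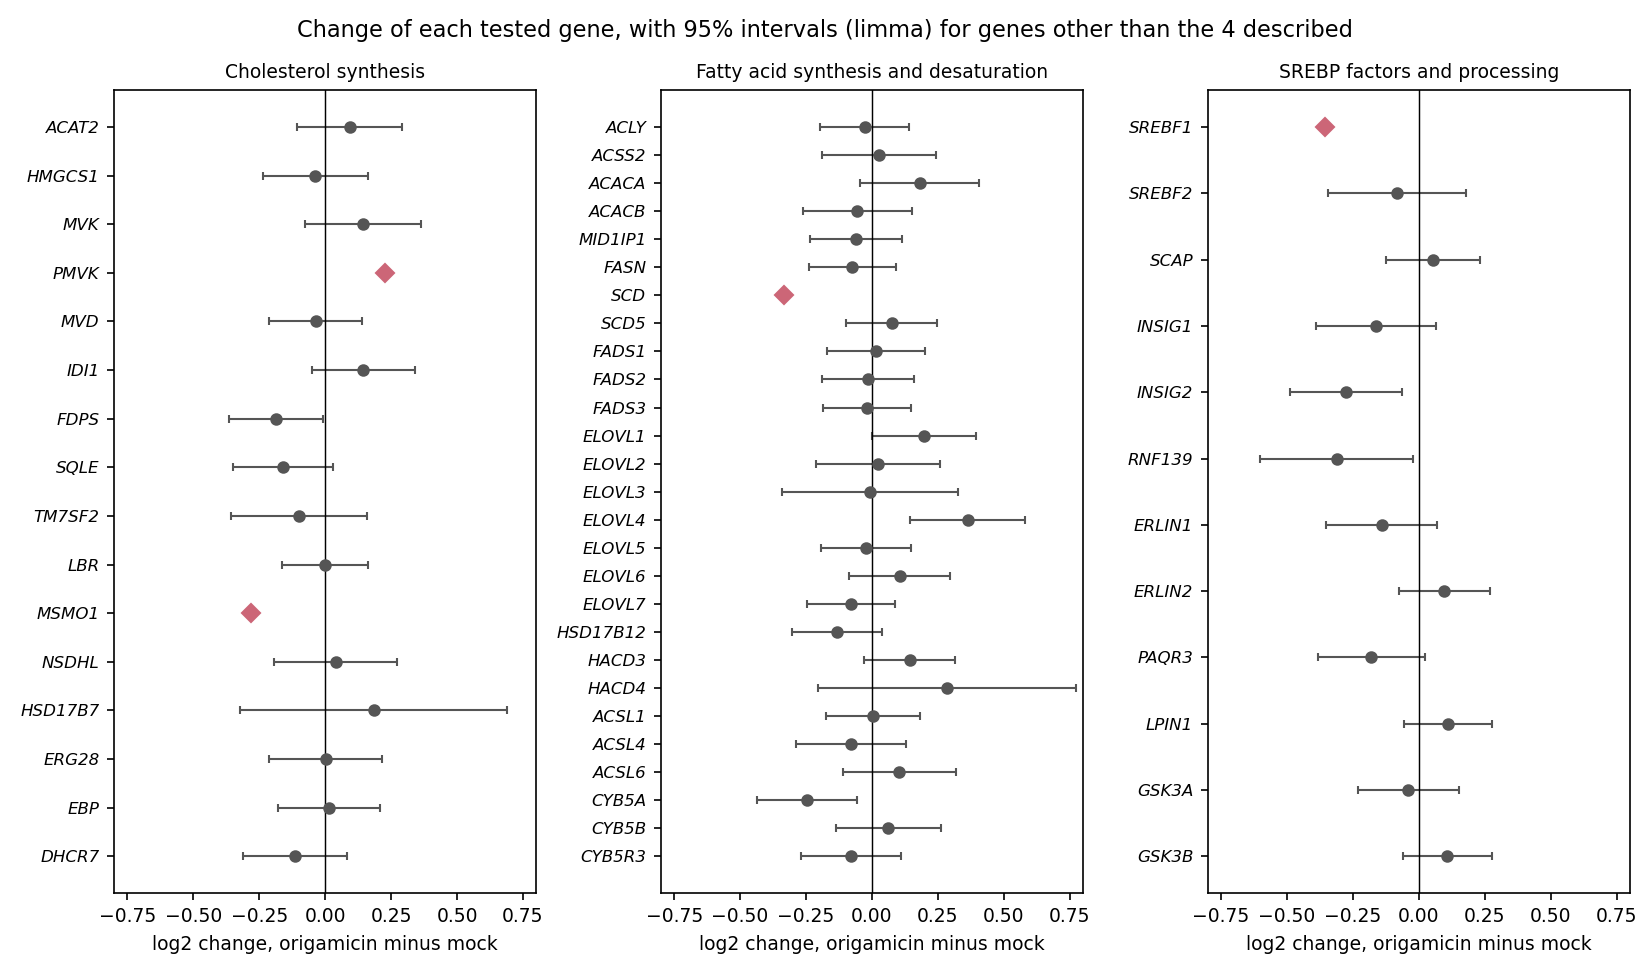
Log2 change (origamicin minus mock) of each tested gene of cholesterol synthesis, of fatty acid synthesis and of SREBP control, with 95% intervals of the limma fit as grey bars. Red diamonds are SCD, MSMO1, SREBF1 and PMVK, which carry no interval because they were chosen for their change; most grey intervals cross 0.

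Among 15 tested genes of sterol uptake and transport, 6 stood higher and 9 lower (40% higher, all genes 47.8%, median -0.0011). VLDLR, a receptor for lipoproteins rich in triglyceride and for reelin, read 8.26 and 8.22 in mock and 7.81 and 7.73 in origamicin, a log2 change of -0.47 ± 0.07, or 1.38-fold lower. This was a larger change than that of any of the 4 members on their main probe sets. Its adjusted p was 0.15 with limma's single prior variance and 0.013 with an intensity trend (0.013 to 0.46 over 16 alternatives). STARD3, a cholesterol carrier of late endosomes, read 8.11 and 7.87 in mock and 8.25 and 8.29 in origamicin (0.28 ± 0.10, limma adjusted p = 0.30). The oxysterol-binding family members OSBPL6 and OSBPL9 stood at 0.14 ± 0.09 and -0.17 ± 0.07. STARD5, another sterol carrier, and TMEM41B, an ER lipid scramblase, had overlapping groups (-0.12 ± 0.11 and 0.09 ± 0.10).

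SREBF1 is a known target of the liver X receptors (LXRs), which respond to oxysterols, but only 4 genes of that list were tested, 2 higher and 2 lower. APOE, the lipoprotein component, stood at 0.37 ± 0.14. The ubiquitin ligase MYLIP stood at -0.02 ± 0.11, the acyltransferase LPCAT3 at -0.16 ± 0.06 and the lipid transfer protein PLTP at 0.05 ± 0.06. No gene of this list passed in the limma fit.

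All 4 tested genes of the sterol storage and oxidation list stood higher (all genes 47.8%), with a median of 0.26. They were SOAT1, SOAT2, NCEH1 and CES1. No sterol oxidation gene of the list was tested: CH25H lay below the filter and the others had no named probe set. In 2 of the 4 both origamicin arrays lay above both mock arrays (all genes 22.7%), and with 4 genes these counts are a description only. SOAT1, which esterifies cholesterol for storage, read 8.80 and 8.85 in mock and 9.12 and 9.23 in origamicin, a log2 change of 0.35 ± 0.08, or 1.28-fold higher. Its adjusted p was 0.18 with limma's single prior variance and 0.023 with an intensity trend (0.023 to 0.46 over 16 alternatives). SOAT2, the second such enzyme, was dim, at 4.63 and 4.64 in mock and 5.06 and 4.82 in origamicin (0.30 ± 0.10, limma adjusted p = 0.27). CES1, a carboxylesterase, was dim as well, with overlapping groups at 0.22 ± 0.19, and its other probe set stood at -0.02.

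Genes of triglyceride synthesis and lipid droplets stood lower in 13 of 19 (31.6% higher, all genes 47.8%), with a median of -0.05. Both origamicin arrays lay below both mock arrays for 9 of them (47.4%, all genes 25.8%) and above for 3 (15.8%, all genes 22.7%). These counts were not tested. HILPDA, a droplet protein that restrains lipolysis, read 8.11 and 8.07 in mock and 7.81 and 7.75 in origamicin (-0.31 ± 0.07), with an adjusted p of 0.18 with limma's single prior variance and 0.037 with an intensity trend (0.037 to 0.46 over 16 alternatives). PNPLA3, a droplet lipase and known SREBP-1 target, was dim, at 4.33 and 4.19 in mock and 4.03 and 3.93 in origamicin (-0.28 ± 0.09). LPIN3 stood at -0.21 ± 0.08, LPIN2 at 0.20 ± 0.07, ABHD5, an activator of lipolysis, at 0.19 ± 0.07, and FITM2, which serves droplet budding, at 0.12 ± 0.08.

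Genes of fatty acid oxidation, the opposing route, were listed together with PPAR nuclear receptors and their targets. Of the 14 tested, 8 stood lower (42.9% higher, all genes 47.8%, median -0.08), and no gene passed. The 14 include PPARA, PPARD, ANGPTL4 and FABP5, so the shares are not those of oxidation enzymes alone. Both origamicin arrays lay below both mock arrays for 7 of the 14 (50%, all genes 25.8%) and above for 3 (21.4%, all genes 22.7%). These counts, too, were not tested. CPT1A, which admits fatty acids to mitochondria, read 9.17 and 9.11 in mock and 9.48 and 9.33 in origamicin (0.26 ± 0.08, limma adjusted p = 0.25). ETFDH, which passes electrons from that route to ubiquinone, read 7.40 and 7.30 in mock and 7.65 and 7.68 in origamicin (0.31 ± 0.07, limma adjusted p = 0.19). The nuclear receptor PPARA stood at 0.18 ± 0.11. CPT2 (-0.21 ± 0.07), the brain-type CPT1C (-0.18 ± 0.07) and the isomerase ECI1 (-0.22 ± 0.10) stood lower.

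**Figure D3:**
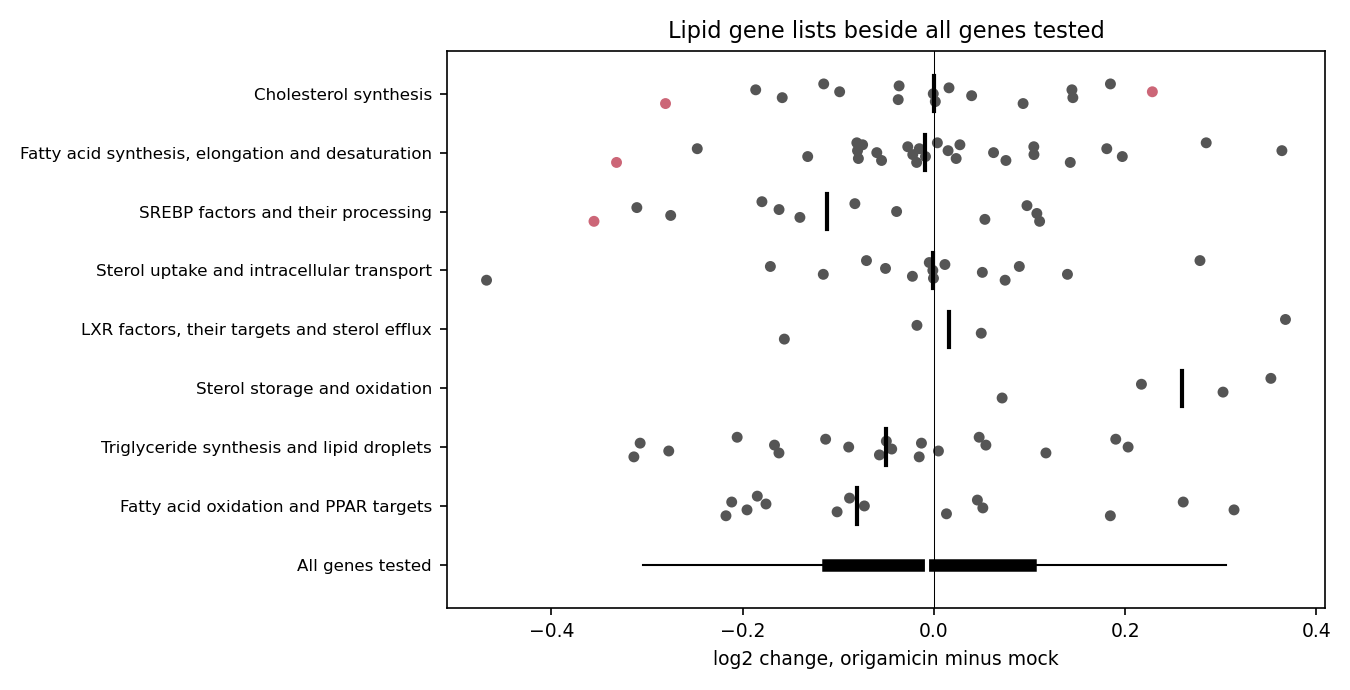
Log2 change (origamicin minus mock) of every tested gene in the 8 lipid lists, 1 point per gene, with SCD, MSMO1, SREBF1 and PMVK in red and the list medians as black bars. The bottom row gives all 11883 genes, from the 5th to the 95th percentile as a thin line (-0.30 to 0.31) and the 25th to 75th as a thick line; SREBF1 and SCD lie below the 5th percentile, MSMO1 and PMVK within the line.

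The genes with the most similar profile over the 4 arrays were found by the Euclidean distance between log2 values centred on each gene's mean. For SCD these were SHROOM2 (distance 0.01) and CDC42EP4 (0.02), for MSMO1 ERMP1 and RIPPLY2 (0.02 each), for SREBF1 the microRNA gene MIR330 and GLIS3 (0.05 each), and for PMVK the microRNA gene MIR205 and BROX (0.02 each). None of the 8 is in the lipid lists. With 4 arrays such profiles rest mostly on the difference between the groups: SHROOM2 stood at -0.33 ± 0.07 and CDC42EP4 at -0.32 ± 0.07, ERMP1 at -0.29 ± 0.07 and RIPPLY2 at -0.27 ± 0.07, MIR330 at -0.37 ± 0.11 and GLIS3 at -0.32 ± 0.15, and MIR205 and BROX at 0.23 ± 0.07 each. MIR205 was dim, at 3.68 to 3.95, around the filter level of 3.82.

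**Figure D4:**
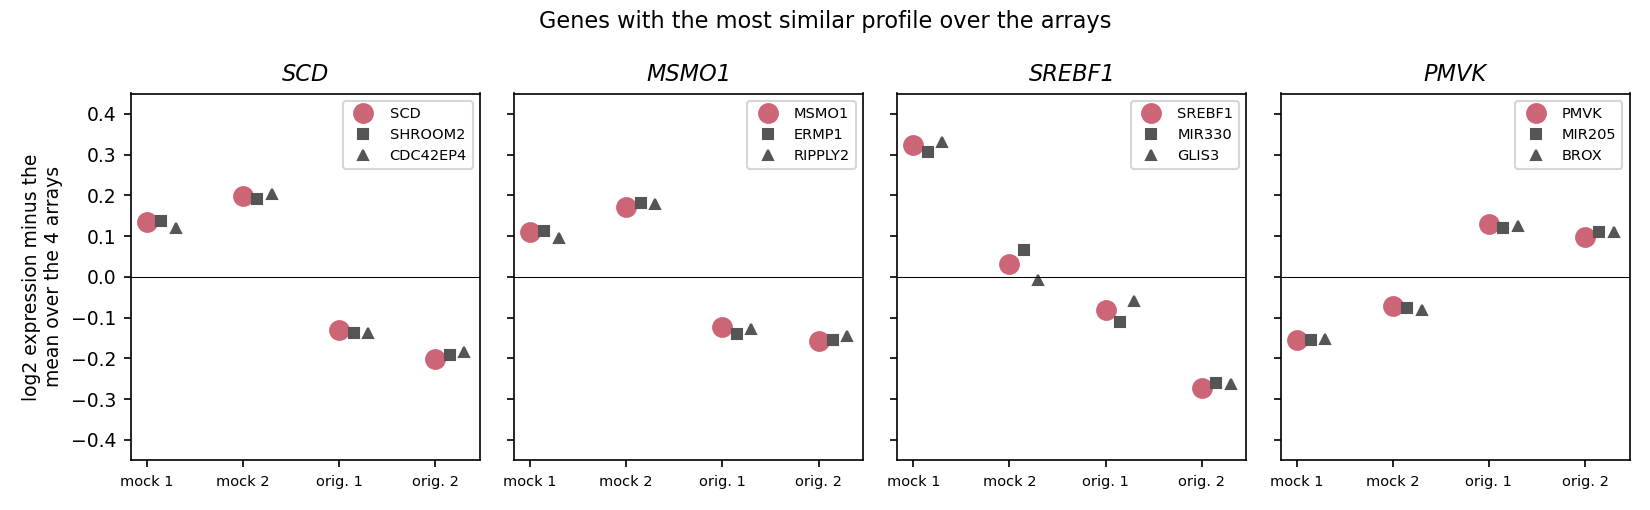
Log2 expression minus the gene's mean over the 4 arrays (vertical axis) on each mock and origamicin array (horizontal axis), for each of the 4 genes (red circles) and its 2 nearest genes (grey squares and triangles, shifted sideways). The SREBF1 panel has the widest spread within groups and the largest distances.

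The identity of the cells was checked against markers. Of 20 noradrenergic neuroblastoma markers, 15 were tested, and DBH, HAND2 and GATA3 read 12.5, 11.3 and 11.1 in mock, and TH read 5.67. In this list 14 of 15 stood lower (6.7% higher, all genes 47.8%, median -0.17), HAND1, TH and GATA3 by 0.02 or less, and HAND2 stood at 0.04. With limma's single prior variance 0 of the 15 passed, and with an intensity trend 6 did, all lower (40%, all genes 2.16%). The mean level of the list was 9.90 and 9.93 in mock and 9.64 and 9.67 in origamicin. Of 15 tested mesenchymal markers 10 stood higher (66.7%, all genes 47.8%, median 0.06). Of these 0 passed with the single prior variance and 4 with an intensity trend (26.7% of the 15, all genes 2.14%), and the list had a mean level of 6.06 and 6.02 in mock and 6.20 and 6.16 in origamicin. Glial markers stood higher in 3 of 6, with means from 4.65 to 4.76 over the 4 arrays. Of 10 adipocyte and hepatocyte markers, from cells that make much lipid, 5 were tested, and ALB and FGB lay below the filter. The 5 were dim, with means from 4.39 to 4.73 over the 4 arrays. Of the 5, 4 stood lower (20% higher, all genes 47.8%, median -0.16), with a range from -0.56 (APOA1) to 0.35 (APOB). The marker lists were chosen with earlier results of these data known, so their shares are a description and were not tested. How many markers pass with the trend and an array left out is not given here. The part of these markers in the lipid gene values was not tested.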

How the data were processed

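Affymetrix Human Gene 2.0 ST arrays, 4 in all and 2 per group, measured RNA, and groups were taken from the sample titles. The deposited values are log2 expression per probe set; RMA and limma are named without versions in the submitters' processing notes, and no source used here gives the genome build or annotation. These log2 values lay between 0.574 and 14.5, array medians lay between 4.37 and 4.42, and they were not normalized again. Over the genes tested, arrays correlated at r = 0.995 and 0.994 within groups and 0.991 to 0.992 between them. The number of arrays limits the precision.

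Of 53617 probe sets, 16098 had 1 named gene (14884 genes), 0 had several and 37519 are unnamed here; all identifiers matched RefSeq, with 0 symbols changed. Where a gene had several probe sets (779 genes) the one with the highest mean was kept, and 3001 genes with a mean under 3.82, the 40th percentile over probe sets, were left out as dim. The 11883 others were fitted with limma 3.58.1 in R 4.3.3 (lmFit, eBayes with a single prior variance, two-sided), and p-values were adjusted by Benjamini-Hochberg over all of them; the threshold was 0.05. This fit and the one with an intensity trend were also run on simulated data with independent normal noise, and no result here rests on that run. Origamicin minus mock is the direction throughout.

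The members and lists were chosen with earlier results of these data known. The text names the 4 members, partner genes of their pathways, the 3 genes with the smallest p on each side of each lipid list, and the 2 genes nearest in profile to each member. Some further list and marker genes are named to say what a list holds. Alternative settings were no filter, a replicate block, a 60th percentile filter, an intensity trend, robust eBayes, quantile normalization, equal medians, the mean of probe sets, the other probe set, a threshold of 0.1 and leaving out each array; the trend with each array left out was added after seeing the data.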

Additional observations from a re-analysis of the deposited data

How the results depend on the processing

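SCD, MSMO1, SREBF1 and PMVK kept their direction under every alternative run for them, but several of these could not have reversed it. The groups of each gene did not overlap, so leaving out 1 array could not change the sign. The replicate block cannot alter a log2 change. For MSMO1, SREBF1 and PMVK, which have 1 probe set each, the mean of probe sets is the same value. The SCD log2 change of -0.33 was -0.48 as the mean of its probe sets and -0.63 on its other probe set; no probe-level data were used to tell these apart, and the cause was not tested. Leaving out each array in turn gave -0.37 to -0.30 for SCD, -0.31 to -0.25 for MSMO1, -0.50 to -0.21 for SREBF1 and 0.19 to 0.27 for PMVK. Over all genes the count past the threshold went from 0 to 92 with the 60th percentile filter, to 511 with an intensity trend, to 53 at an adjusted p of 0.1, and to 60 and 58 with the trend and without mock replicate 1 or 2, to 196 and 323 with the trend and without origamicin replicate 1 or 2, and was 0 otherwise. For the 107 other lipid genes it went from 0 to 5 with an intensity trend and to between 0 and 2 with the trend and each array left out. At an unadjusted p under 0.05 their count of 19 became 12 with no filter. The cause of these differences was not tested.

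The labels give both groups replicates 1 and 2 and do not say whether same-numbered arrays were handled together. Same-numbered arrays did not deviate together (r = -0.02 over 11883 genes), which with 2 arrays per group cannot show that they were unpaired. With a replicate block the counts stayed at 0 over all genes and over the lipid genes. In this balanced design the block cannot alter a log2 change, so it bears only on the p-values.

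Named genes near 0 changed sign: ACLY with quantile normalization (0.0017), FADS1 with equal medians (-0.0015). With an array left out, the lowest and highest values were -0.19 and 0.028 for SREBF2, -0.090 and 0.015 for HMGCS1, -0.029 and 0.058 for FADS1, -0.047 and 0.016 for FADS2, -0.050 and 0.13 for NSDHL, -0.14 and 0.10 for MYLIP, -0.023 and 0.20 for TMEM41B, -0.24 and 0.011 for STARD5 and -0.011 and 0.45 for CES1. None of these genes passed the threshold under any alternative. Arrays of 2 per group limit every value, and dim probe sets near 3.82 can understate a change.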
